A study of Mus musculus with 4 samples.

Results

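RNA was sequenced from tumors of Lewis lung carcinoma (LLC) cells, a mouse lung cancer line, grown under the skin of the back in C57BL/6 mice, the strain of origin of the line, and collected on day 5. The LLC group is labelled wild type, and the LLC-Chem group carried a pEFIN plasmid encoding murine chemerin, in a form that the methods describe as active without further cleavage. Each group comprised 2 pools of 3 tumors, that is 6 tumors in 2 libraries. The cell lines were derived from individual clones after selection, empty vector cells are also described by the study, and the age of the mice is not given in the labels, so that a difference between clones and an effect of chemerin cannot be told apart here. The comparison asked which genes differed in level when the tumor cells expressed chemerin, and it is described for 10 genes of endothelial junctions and leukocyte capture, taken from the 47729 genes of the deposited table. They were chosen by name for their function, not by their values, although earlier results of these data were known when the choice was made. All 10 reached a mean of 1 RPM (reads per 1000000 reads counted on genes), as did 13694 of all genes.

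Endothelial cells line blood vessels and seal the space between them with adherens and tight junctions. VE-cadherin, claudin-5, ESAM and PECAM-1 sit at these contacts, and PLVAP forms the diaphragms of endothelial fenestrae and caveolae. Leukocytes leave the blood by first rolling on selectins and then binding through integrins to the immunoglobulin-like molecules ICAM-1, ICAM-2 and VCAM-1, and several of these molecules are induced in endothelial cells by inflammatory cytokines acting through the transcription factor NF-kB.

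The promoters of Sele and Icam1, which cytokines induce, are shown beside that of the junction gene Cldn5, since the levels of all 3 fell. Promoter sequences were found for 4 of the 10 genes, Sele, Selp, Icam1 and Cldn5, in the RefSeq annotation of GRCm38.p6, and each window covers the 250 bases before the RefSeq start on the plus strand, 5′ to 3′. Capitals mark matches to GGNNNTTCC or its reverse complement GGAANNNCC, a pattern of NF-kB sites, where N is any base.
Sele, chr1:164047984-164048233: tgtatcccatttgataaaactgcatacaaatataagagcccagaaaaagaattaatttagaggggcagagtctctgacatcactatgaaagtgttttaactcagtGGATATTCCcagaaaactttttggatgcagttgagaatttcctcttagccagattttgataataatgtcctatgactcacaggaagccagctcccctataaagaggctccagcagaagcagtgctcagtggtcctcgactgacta
Icam1, chr9:21015690-21015939: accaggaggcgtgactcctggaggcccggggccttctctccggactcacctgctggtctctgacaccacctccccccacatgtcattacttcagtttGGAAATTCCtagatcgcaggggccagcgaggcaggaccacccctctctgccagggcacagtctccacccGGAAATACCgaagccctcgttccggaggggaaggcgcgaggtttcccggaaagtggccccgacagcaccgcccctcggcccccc
Cldn5, chr16:18776597-18776846: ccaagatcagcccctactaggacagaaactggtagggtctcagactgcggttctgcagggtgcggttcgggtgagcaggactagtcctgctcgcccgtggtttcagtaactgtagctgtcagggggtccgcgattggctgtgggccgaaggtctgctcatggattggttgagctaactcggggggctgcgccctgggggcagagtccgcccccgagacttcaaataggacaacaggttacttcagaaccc
The window of Icam1 held 2 such matches, that of Sele 1, that of Selp 1 and that of Cldn5 0, while 15.7% of 32851 promoter windows of the same length held at least 1. The other motifs searched on both strands were the TATA box with the letters TATAAA, the core of ETS sites with the letters AGGAAG, which may overlap the pattern above, and the core of hypoxia response elements with the letters ACGTG, held by 12.4%, 29.5% and 16.6% of all windows. The window of Sele held 1 TATAAA and 1 AGGAAG match and that of Selp 1 AGGAAG match, and no other match was found in the 4 windows. A match is a description of the letters and not evidence of binding.

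Of the 10 genes, 8 were lower and 1 was higher in LLC-Chem than in LLC tumors at an adjusted p under 0.05 (limma on log2(RPM + 0.5), two-sided, Benjamini-Hochberg adjustment over the 13694 genes). Over all genes, 13.5% were called lower and 9.54% were called higher. The 5 junction and barrier genes Cdh5, Cldn5, Esam, Pecam1 and Plvap fell, as did Icam1, Icam2 and Sele. Vcam1 rose, and Selp did not pass the threshold. The median log2 fold change of the 10 genes was -1.91, against -0.04 over all genes tested. In the 4 fits that left out a single pool, limma called 0 genes of the whole table, while between 7 and 9 of the 10 genes, and between 18.8% and 36.3% of all genes tested, had an unadjusted p under 0.05. No gene was therefore called in this comparison from 3 pools.

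**Figure D1:**
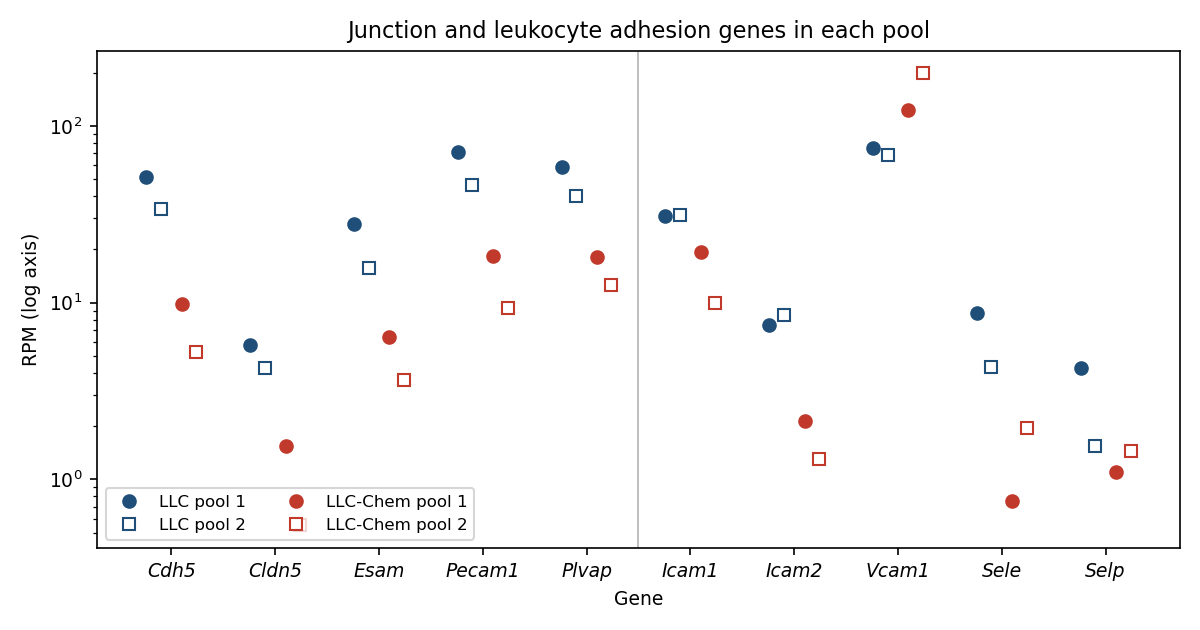
Level of each of the 10 genes in each pool, in RPM on a log axis; filled circles are the first and open squares the second pool of a group, and the vertical line separates junction and barrier genes (left) from leukocyte adhesion genes (right). The LLC-Chem pools (red) lie below both LLC pools (blue) for 9 genes and above them for Vcam1, orders that 39.3% and 33.1% of all genes tested show.

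Each library held between 28470000 and 33990000 reads on genes, as recovered from the steps of the RPM scale, and 3 reads, the floor used here, equal between 0.0883 and 0.105 RPM. The 10 genes were covered by between 18 and 6663 reads per pool. These limits cover counting error only. Pools of a group differed by far more than sampling noise, the chi-square per gene being 65.9 in the LLC and 26.9 in the LLC-Chem group. Whether the pools came from separate experiments is not given, and p-values measure the spread between these pools. Rarres2, which encodes chemerin, measured 102.2 and 98.2 RPM in LLC against 105.9 and 105.8 RPM in LLC-Chem tumors (limma adjusted p = 0.541), a difference that was not called although both LLC-Chem pools lay slightly above both LLC pools. With levels this close, Rarres2 gives no check of the labels, which are used here as given. Among the samples of whole tumor, fewer endothelial cells and less RNA per endothelial cell cannot be told apart.

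Cdh5 (ENSMUSG00000031871, chromosome 8, 104101625 to 104144511, plus strand of GRCm38) encodes VE-cadherin, the cadherin of endothelial adherens junctions. It measured 51.3 and 34.1 RPM in LLC against 9.84 and 5.25 RPM in LLC-Chem tumors. The groups did not overlap, and the higher LLC-Chem pool lay well under the lower LLC pool. The mean of 42.7 ± 12.2 RPM (SD, n = 2) dropped to 7.55 ± 3.25 RPM (SD, n = 2), that is to 17.7% of the LLC mean, the largest log2 fold change among the 10 genes at -2.46 (standard error, SE, 0.33, limma adjusted p = 0.0141).

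Cldn5 (ENSMUSG00000041378, chromosome 16, 18776847 to 18778262, plus strand) encodes claudin-5, the main claudin of endothelial tight junctions. Its levels were 5.80 and 4.25 RPM in LLC against 1.55 and 0.55 RPM in LLC-Chem tumors. The second LLC-Chem pool, which held 18 reads of Cldn5, was the lowest. The mean fell to 20.9% of LLC, and the log2 fold change was -1.90 (SE 0.37, limma adjusted p = 0.0266), a value that the added 0.5 RPM brings nearer to 0 for a gene this low.

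Esam (ENSMUSG00000001946, chromosome 9, 37528078 to 37538319, plus strand) encodes an immunoglobulin-like adhesion molecule of endothelial tight junctions and platelets. It was at 27.8 and 15.7 RPM in LLC against 6.40 and 3.65 RPM in LLC-Chem tumors. In each group the second pool was the lower of the pair. The log2 fold change was -2.004 (SE 0.36, limma adjusted p = 0.0223).

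Pecam1 (ENSMUSG00000020717, chromosome 11, 106654217 to 106750628, minus strand) encodes CD31, a receptor at endothelial contacts that is also carried by platelets and leukocytes. It had more RPM than Cdh5, Cldn5 and Esam in every pool, with 71.2 and 46.2 RPM in LLC against 18.5 and 9.34 RPM in LLC-Chem tumors. Its mean in LLC-Chem tumors was 23.7% of that in LLC tumors (log2 fold change -2.08, 95% confidence interval -2.97 to -1.19, limma adjusted p = 0.0204).

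Plvap (ENSMUSG00000034845, chromosome 8, 71497765 to 71511752, minus strand) fell from 58.8 and 40.03 to 18.2 and 12.6 RPM. Its log2 fold change was -1.65 (SE 0.25, limma adjusted p = 0.0165), the smallest fall of these 5 genes. Per kilobase of exon, which allows levels of different genes to be compared, Plvap was the most abundant of the 10 genes in LLC tumors at 24.9 RPM per kb. Cdh5 followed at 10.2, Pecam1 at 9.42, Vcam1 at 8.08, Esam at 7.60, Icam1 at 7.14, Icam2 at 4.21, Cldn5 at 3.55, Sele at 2.24 and Selp at 0.657 RPM per kb. In LLC-Chem tumors the order began with Vcam1 at 18.2 RPM per kb, ahead of Plvap at 7.75, Icam1 at 3.36, Pecam1 at 2.23 and Cdh5 at 1.80 RPM per kb.

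**Figure D2:**
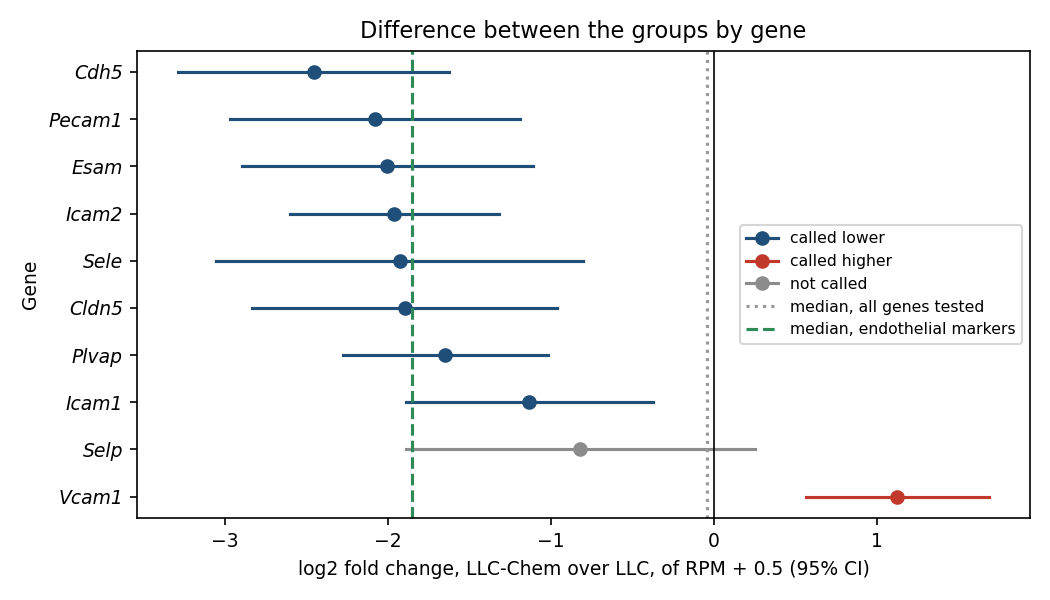
Log2 fold change (LLC-Chem over LLC, of RPM + 0.5) of each gene with its 95% confidence interval from limma, coloured by call; the dotted line is the median of all genes tested (-0.04) and the dashed line the median of 20 endothelial markers (-1.85). Vcam1 is alone on the right of 0, and the interval of Selp includes 0.

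Icam1 (ENSMUSG00000037405, chromosome 9, 21015985 to 21028817, plus strand) encodes ICAM-1, which binds the leukocyte integrins LFA-1 and Mac-1 and is also made by many other cell types. It measured 30.8 and 31.5 RPM in LLC against 19.4 and 9.94 RPM in LLC-Chem tumors. This gene, with 2 matches to the NF-kB pattern in its promoter window, was nearly equal in the LLC pools, and the LLC-Chem pools were both lower but apart from each other. The log2 fold change of -1.13 (SE 0.30) just passed (limma adjusted p = 0.0491). It passed in 5 of 17 alternatives. It did not pass, among others, with a pseudocount of 0.1 (limma adjusted p = 0.0502), with a filter of 0.5 RPM (limma adjusted p = 0.053), without a variance trend (limma adjusted p = 0.076), with TMM scaling (limma adjusted p = 0.0572), with median-of-ratios scaling (limma adjusted p = 0.053) or with edgeR's quasi-likelihood test on recovered reads (adjusted p = 0.0652), and without the second LLC-Chem pool its log2 fold change was -0.67. Exons of an antisense gene lie over 11.7% of its exon bases, where reads cannot be assigned if strand was not used in counting.

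Icam2 (ENSMUSG00000001029, chromosome 11, 106377656 to 106388075, minus strand), which lies 266141 bases from Pecam1, encodes ICAM-2, a constitutive ligand of LFA-1 on endothelial cells and platelets. It was at 7.496 and 8.55 RPM in LLC against 2.15 and 1.30 RPM in LLC-Chem tumors. All 4 values were low, but the groups were far apart relative to the pools within them. With a log2 fold change of -1.96 and a standard error of 0.26, Icam2 had the lowest adjusted p of the 10 genes (0.0135 from limma).

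Vcam1 (ENSMUSG00000027962, chromosome 3, 116109949 to 116129688, minus strand) encodes VCAM-1, the ligand of the integrin VLA-4, which is found on activated endothelium and on stromal cells and macrophages. It measured 74.9 and 68.5 RPM in LLC against 123.7 and 198.7 RPM in LLC-Chem tumors. Both LLC-Chem pools were above both LLC pools, an order shown by 33.1% of all genes tested, and the second was the highest of all. The mean of 71.7 ± 4.52 RPM (SD, n = 2) rose to 161.2 ± 53.0 RPM (SD, n = 2), that is to 225% of LLC, and the log2 fold change was 1.13 (SE 0.23, limma adjusted p = 0.0274). Vcam1 passed in 11 of 17 alternatives. When the variance of limma was not fitted with a trend, it did not pass (adjusted p = 0.051). The size of the rise depended on single pools, being 0.79 on the log2 scale without the second and 1.47 without the first LLC-Chem pool.

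Sele (ENSMUSG00000026582, chromosome 1, 164048234 to 164057677, plus strand) encodes E-selectin, which endothelial cells display after stimulation by cytokines. It was at 8.75 and 4.30 RPM in LLC against 0.75 and 1.95 RPM in LLC-Chem tumors. Here the second LLC-Chem pool, the lower for most junction genes, was the higher. The log2 fold change was -1.93 (SE 0.45, limma adjusted p = 0.0371), and the call was lost when limma was fitted without a trend (adjusted p = 0.0554).

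Selp (ENSMUSG00000026580, chromosome 1, 164115264 to 164150026, plus strand), 57586 bases from Sele, encodes P-selectin, which endothelial cells and platelets store in granules. Its levels were 4.25 and 1.55 RPM in LLC against 1.10 and 1.45 RPM in LLC-Chem tumors. Both LLC-Chem pools were below both LLC pools, as for 39.3% of all genes tested, but the second LLC pool lay close to them. The log2 fold change of -0.82 was not called (limma adjusted p = 0.202), and its 95% confidence interval, -1.89 to 0.25, includes changes as large as that of Icam1. The value depended on single pools, being -0.21 without the first and -1.43 without the second LLC pool, and neither was called. Exons of antisense and lincRNA genes lie over 14.1% of its exon bases. Of the 7 platelet and megakaryocyte markers examined, 3 reached 1 RPM, of which Pf4 (also made by macrophages) and Ppbp fell and Itga2b was not called (log2 fold change 0.55, higher in both LLC-Chem pools), while Gp9, Gp1ba, Gp6 and Treml1 stayed under 0.5 RPM in every pool. Their summed level was 407.6 and 381.7 RPM in LLC against 196.9 and 165.1 RPM in LLC-Chem tumors, of which Pf4 made up between 88.2% and 90.8%, and the part of platelet RNA in Selp, Esam and Pecam1 was not tested.

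To set the 10 genes beside other endothelial genes, 20 endothelial markers outside the list were examined. Many of them, Kdr, Tie1 and Tek included, belong to a set of angiogenesis genes that the study itself reported for these pools. Their levels were therefore known when the markers were chosen. All 20 were detected and reached 1 RPM, 15 were called lower and 0 higher, and their median log2 fold change was -1.85. Kdr, a receptor for vascular endothelial growth factor, went from 35.2 and 33.2 to 9.04 and 6.40 RPM. Tek, Egfl7, Adgrl4, Sox17 and Flt1 were not called, and Flt1, at 25.1 and 16.04 RPM in LLC and 18.9 and 20.9 RPM in LLC-Chem tumors, had a log2 fold change of -0.01. The summed level of the 20 markers was 492.4 and 420.5 RPM in LLC against 165.1 and 110.3 RPM in LLC-Chem tumors.

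Each gene was then expressed relative to these markers, as its log2(RPM + 0.5) minus the mean of the markers in the same pool, and the difference between the groups was tested with limma over all genes. On this scale 83.3% of all genes were called higher and 0.234% lower in LLC-Chem tumors, and the median difference over all genes was 1.68. Vcam1 was called higher, by 2.85 (SE 0.52, limma adjusted p = 2.40e-06). Its level stood 2.14 and 2.49 log2 units above the marker mean in the LLC pools and 4.51 and 5.82 above it in the LLC-Chem pools. Without the first LLC pool this difference was 2.67 and was not called (limma adjusted p = 0.0943).
The other 9 genes were not separated from the markers by this test. The differences were 0.08 for Plvap, -0.18 for Cldn5, -0.21 for Sele, -0.24 for Icam2, -0.28 for Esam and -0.36 for Pecam1. For Cdh5 the difference was -0.73, with a 95% confidence interval from -1.77 to 0.30. Its level stood 1.60 and 1.49 above the marker mean in the LLC pools and 0.92 and 0.70 above it in the LLC-Chem pools. Icam1 lay on the other side at 0.59 (interval -0.44 to 1.62), and Selp at 0.90 (interval -0.18 to 1.98), a difference that was called without the first LLC-Chem pool (1.36, limma adjusted p = 0.0291), where the single LLC-Chem pool is assumed to vary like the LLC pools and 84.8% of all genes were called higher. The intervals span about 1 log2 unit on either side, a width set by a variance that limma largely shares over all genes. With the replicate number as a block, Cdh5 was called lower, as were 0.643% of all genes, and Icam1 and Selp were called higher, as were 92.9% of all genes.

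**Figure D3:**
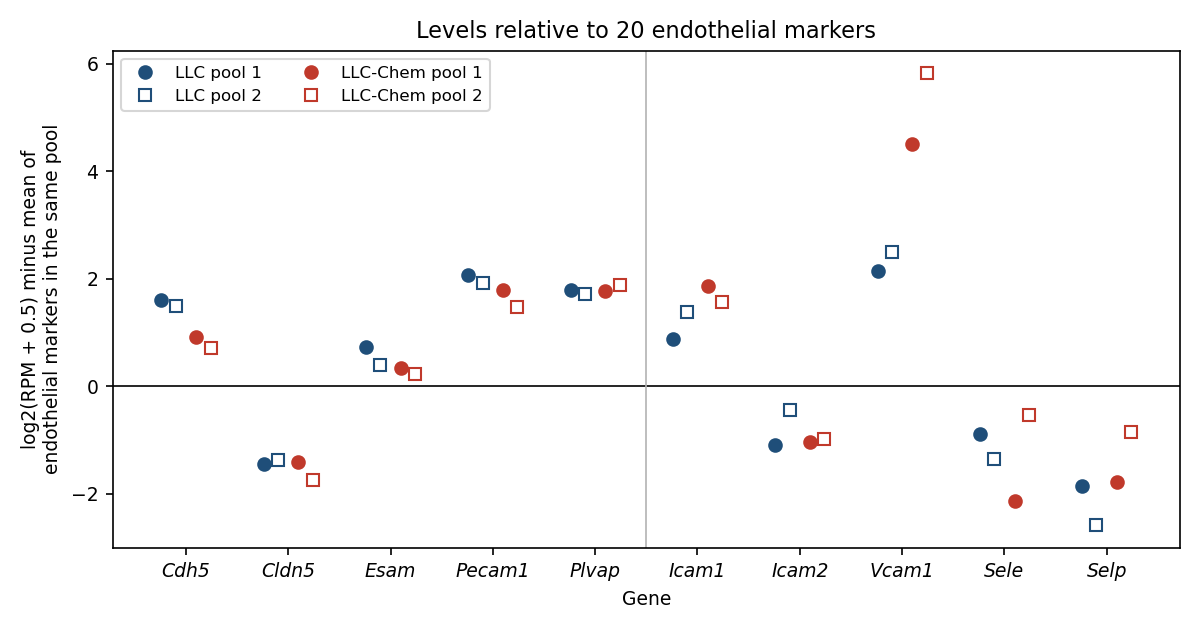
Level of each gene relative to the endothelium in each pool, as log2(RPM + 0.5) minus the mean of the same quantity over 20 endothelial markers; 0 is the marker mean. Vcam1 rises from 2.14 and 2.49 in the LLC pools to 4.51 and 5.82 in the LLC-Chem pools, whereas Plvap stays between 1.72 and 1.89 in all 4.

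Among 25 other genes of cell junctions, 23 were tested, 5 were called lower, 1 higher and 17 were not called, with a median log2 fold change of -0.07. Those called were 21.7% lower and 4.35% higher, against 13.5% and 9.54% of all genes tested. The genes that fell were Mcam (CD146, an adhesion molecule of endothelium and pericytes), F11r (JAM-A, a tight junction protein of epithelium, endothelium and platelets), Ocln (occludin) and the arterial connexins Gja4 and Gja5. Mcam went from 63.5 and 41.0 to 18.1 and 8.45 RPM (log2 fold change -1.998), and F11r from 16.4 and 9.79 to 4.90 and 2.70 RPM (log2 fold change -1.67). Cav1, which encodes the caveolar coat protein caveolin-1, rose from 717.1 and 585.0 to 1076.9 and 1354.6 RPM (log2 fold change 0.90, limma adjusted p = 0.0277). The cytoplasmic partners that link cadherins and tight junctions to actin in most cell types were not called, with log2 fold changes of 0.25 for Ctnnb1 (beta-catenin), -0.05 for Ctnna1 (alpha-catenin), -0.25 for Ctnnd1 (p120-catenin) and -0.09 for Tjp1 (ZO-1). Jam2 and Jam3, junctional adhesion molecules, were at -0.19 and -0.09. Cgn was below 1 RPM, and Cd99 was not analysed here.

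Of 16 leukocyte genes that bind or modify the ligands of these adhesion molecules, 15 were tested, 7 were called lower and 0 higher, with a median log2 fold change of -0.82. That is 46.7% lower, against 13.5% of all genes tested, and 0 higher, against 9.54%. Itgal, the alpha chain of LFA-1 that pairs with ICAM-1 and ICAM-2, went from 17.6 and 16.9 to 4.75 and 1.85 RPM (log2 fold change -2.34). Selplg, which encodes the selectin ligand PSGL-1, fell by 1.43 on the log2 scale, and Spn (CD43), Itgam, Itgb7 and Itga9 fell as well. Itga4, the alpha chain of the VCAM-1 receptor VLA-4, was at 16.6 and 22.3 RPM in LLC against 14.1 and 5.95 RPM in LLC-Chem tumors and was not called (log2 fold change -1.02, limma adjusted p = 0.114). Its partner chain Itgb1, used by nearly all cells, had a log2 fold change of 0.19. Of 14 general leukocyte markers, 10 were tested, 7 were called lower and 0 higher. Ptprc (CD45) was at 124.5 and 124.3 RPM in LLC and at 55.2 and 29.3 RPM in LLC-Chem tumors. The summed level of the leukocyte markers was 3578 and 6473 RPM in LLC against 2894 and 1363 RPM in LLC-Chem tumors. Lyz2 (lysozyme of myeloid cells), which was not called, made up between 72.6% and 79.7% of that sum, and the part of leukocyte RNA in Pecam1 and Icam1 was not tested.

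Among 11 other adhesion genes of vessels and lymphoid vessels, 7 were tested, 4 were called lower (57.1%, against 13.5% of all genes tested) and 0 higher (against 9.54%). Aoc3 (vascular adhesion protein 1) fell by 1.82, Podxl (podocalyxin) by 1.04, Ackr1 (the venular chemokine-binding receptor) by 0.88 and Stab1 (stabilin-1, also on macrophages) by 0.79 on the log2 scale. Cd34 was not called, with LLC pools at 360.8 and 802.0 RPM and LLC-Chem pools at 305.6 and 325.7 RPM. The lymph node ligands Madcam1 and Glycam1 stayed under 0.5 RPM in every pool and Chst4 was at 0 in all 4.

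**Figure D4:**
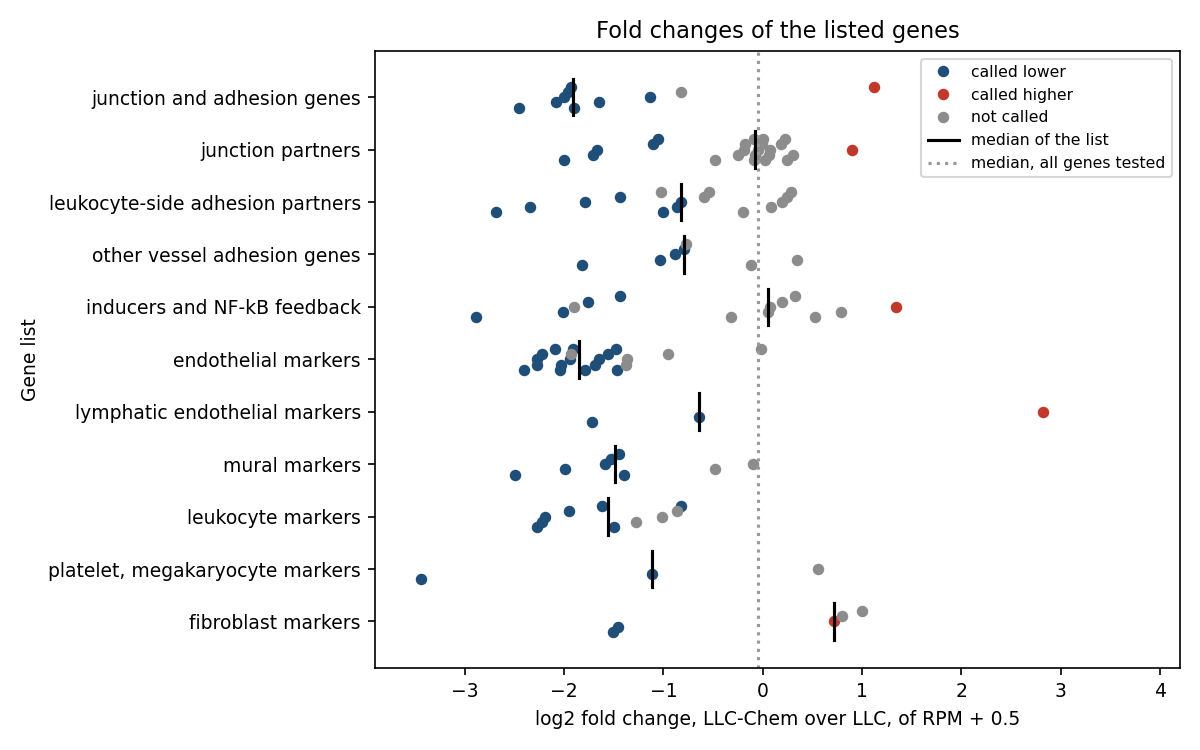
Log2 fold changes (LLC-Chem over LLC, of RPM + 0.5) of the tested genes of each list, coloured by call, with the list's median as a black bar and the median of all genes tested as a dotted line; the vertical scatter within a list has no meaning. The medians are -1.91 for the 10 junction and adhesion genes, -1.85 for the endothelial markers and -0.07 for the other junction genes.

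The cytokines that induce E-selectin, ICAM-1 and VCAM-1, their receptors and NF-kB genes were examined as 14 genes, of which 13 were tested, 4 were called lower and 1 higher. The shares were 30.8% lower and 7.69% higher, against 13.5% and 9.54% of all genes tested. Il1b went from 63.6 and 26.2 to 8.40 and 2.998 RPM (log2 fold change -2.89, limma adjusted p = 0.0265), and Tnf from 11.1 and 6.15 to 2.85 and 1.499 RPM (log2 fold change -1.76, limma adjusted p = 0.0308). Il1a and the receptor Tnfrsf1b also fell, by 1.44 and 2.01 on the log2 scale. The interleukin-1 receptor Il1r1 rose from 158.3 and 131.9 to 346.1 and 388.1 RPM (log2 fold change 1.34, limma adjusted p = 0.01). The NF-kB subunits Nfkb1, Nfkb2, Rela and Relb were not called, with log2 fold changes between 0.05 and 0.32.
Nfkbia and Tnfaip3, which are induced by NF-kB and restrain it, were not called either, but they set the LLC-Chem pools apart. Nfkbia was at 176.1 RPM in the first and 435.2 RPM in the second LLC-Chem pool, against 178.8 and 144.3 RPM in the LLC pools. Tnfaip3 was at 26.2 and 90.7 RPM in the LLC-Chem pools against 39.98 and 28.5 RPM in the LLC pools. The second LLC-Chem pool was also the higher of the pair for Vcam1 (1.61 times the first), Sele (2.60 times) and Selp (1.32 times), and the lower for the other 7 genes, with ratios from 0.355 for Cldn5 to 0.692 for Plvap. Of the 20 endothelial markers, 19 were lower in the second than in the first LLC-Chem pool. In the LLC group, where 19 of the 20 markers were also lower in the second pool, Sele and Selp followed them (0.491 and 0.365 times the first pool). These orders rest on single pools and were not tested.

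**Figure D5:**
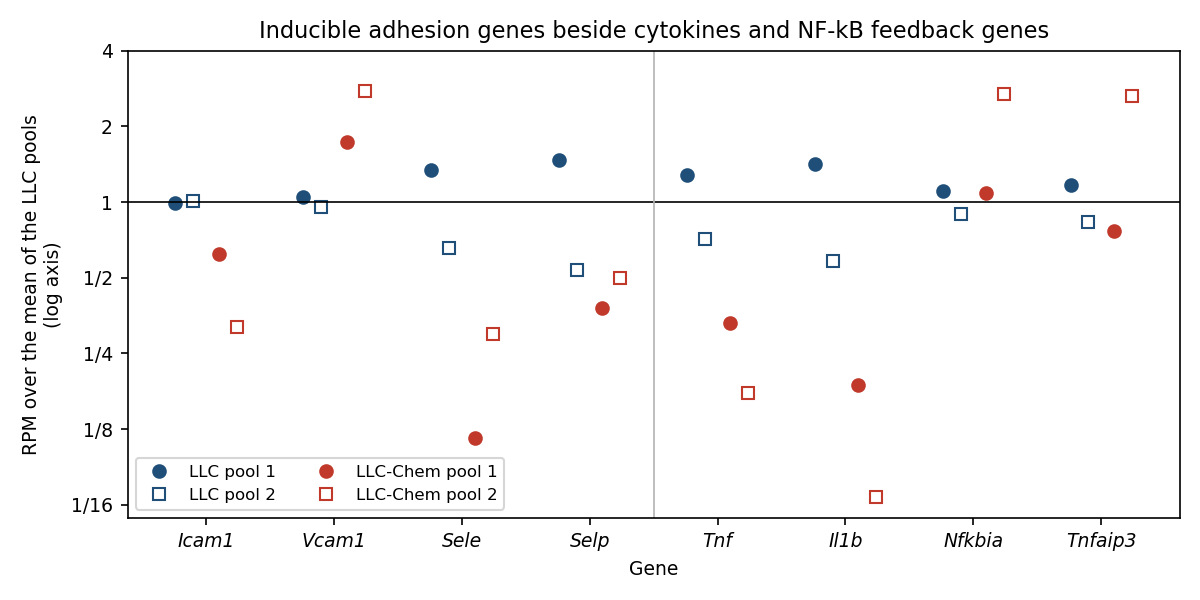
RPM in each pool divided by the mean of the LLC pools, on a log axis, for 4 adhesion genes (left) and for 4 of the cytokine and NF-kB feedback genes (right), the latter chosen after their values were seen. In the second LLC-Chem pool (open red squares) Vcam1, Nfkbia and Tnfaip3 are highest of all pools, whereas Tnf and Il1b are lowest.

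Markers of cells other than endothelium also differed between the groups beside Vcam1. Of 5 fibroblast markers, Col1a1 and Col1a2 fell (log2 fold changes -1.51 and -1.46), and Pdgfra rose from 126.9 and 183.4 to 255.6 and 247.3 RPM (log2 fold change 0.72, limma adjusted p = 0.045). Dcn and Lum had log2 fold changes of 0.80 and 1.00 and were not called (limma adjusted p = 0.0753 and 0.0776). The summed level of these 5 markers was 11800 and 20339 RPM in LLC against 8559 and 6870 RPM in LLC-Chem tumors. Col1a1 and Col1a2 made up between 64.1% and 90.9% of it, and the other 3 markers were higher in both LLC-Chem pools, with a median log2 fold change of 0.72 over the 5. Of 8 markers of pericytes and smooth muscle, which wrap the endothelium, 6 were called lower and 0 higher, among them Acta2 (-2.50), Rgs5 (-1.99) and Pdgfrb (-1.53), while Kcnj8 and Notch3 were not called. Their summed level was 258.6 and 211.7 RPM in LLC against 85.7 and 56.9 RPM in LLC-Chem tumors. Which cells, the tumor cells included, held the Vcam1 RNA was not tested.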

How the data were processed

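Sample titles gave the groups and replicate numbers. Per the submitters' processing notes, STAR and HTSeq were used with the mouse build GRCm38, and the authors deposited RPM for 47729 genes in 4 pools. The versions of these tools and the use of strand in counting are not given in the sources used here. All values (100%) were whole steps (within 0.1 step). Their spacing was fitted as counts scaled to 20000000 and rounded up, which gave library totals and reads. On 4 simulated libraries the fitted total was within 0.00654% of the true one.

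Genes whose deposited RPM averaged 1 or more were compared on the scale log2(RPM + 0.5) by limma 3.58.1 (R 4.3.3, eBayes with a variance trend). RPM are not counts, so limma was preferred to the edgeR test of the study. On the recovered reads, the quasi-likelihood test of edgeR called 1600 genes lower and 1551 higher. When tested on simulated data (13652 genes), limma recovered 98 of 100 genes changed 4-fold and 71 of 100 changed 2-fold, and 2.31% of its 173 calls were unchanged genes. No other genes were changed in the simulation, and noise was drawn for each gene separately. In the data 13.5% of genes were called lower and 9.54% higher, so 2.31% is not the error rate of those calls. Permuting 2 against 2 pools gives no p under 0.33, so no permutation test was used.

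Alternatives were pseudocounts of 0.1 and 1, other filters, TMM and median-of-ratios scaling, eBayes without trend, the replicate block, edgeR 4.0.16 and DESeq2 1.42.0 on recovered reads, other uses of the markers and omission of each pool in turn. Crossed pairing was an alternative added after seeing the data. The 10 genes, the lists and the tests were chosen with earlier results of these data known. The genes that may be named are the 10 genes, the listed genes, and the 5 genes outside the lists with profiles nearest to Cdh5 and to Vcam1. Some of these are not reported here. Coordinates and exon lengths are from GENCODE M21, which holds 98.9% of the identifiers. Listed genes were matched by symbol, with Pvrl2 for Nectin2 and Mllt4 for Afdn. Figures were drawn with Python 3.11.15 and matplotlib 3.10.9.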

Additional observations from a re-analysis of the deposited data

How the results depend on the processing

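All 10 genes kept the direction of their fold change in every alternative in which they were tested (16 or 17 each). By limma with the stricter filter of 5 RPM, which left out 4 of the genes, 5 were called lower and 1 (Vcam1) higher, with 13.4% and 10.1% of all genes. With no filter 0 were called lower and 0 higher, with 0 and 0 of the partner genes and 0 and 1 of all genes (lower and higher), against 4003 and 3394 at an unadjusted p under 0.05. When a single pool was left out, the called genes were 0 to 0 in each direction for the 10 genes, for the partner genes and for all genes by limma. The number of the 10 genes with an unadjusted p under 0.05 was then 7 to 9, and the share of all genes 18.8% to 36.3%. Without a trend in eBayes, 6 of the 10 were called lower and 0 higher, with 1271 and 891 of all genes (1848 and 1306 with a trend).

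The 66 partner genes (58 tested) gave 20 lower and 2 higher, while 13.5% of all genes tested were called lower and 9.54% higher. The number higher was 4 with TMM scaling (11.6% of all genes) and 5 with DESeq2 (13.7%). It was 4 with each of edgeR's quasi-likelihood (11.3%) and likelihood ratio tests (14.6%). The likelihood ratio test called 2005 of all genes higher, against 1306 by limma. The causes of these differences were not tested.

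Pools that share a replicate number did not deviate together (correlation of the deviations over all genes tested -0.14), and the pairing is by number alone. With the replicate number as a block, limma called 1064 of all genes lower and 549 higher, 1 partner gene higher, and 6 of the 10 genes lower, with Icam1 and Sele lost (adjusted p = 0.0602 and 0.0704). Relative to the endothelial markers the block gave 3 genes higher (Vcam1, Icam1 and Selp) and 1 lower (Cdh5), with 92.9% of all genes higher and 0.643% lower, whereas pairing the numbers crosswise, an alternative chosen after seeing the data, gave 0 higher (2.45% of all genes), with Vcam1 at adjusted p = 0.0687 from limma. Leaving out a pool gave 0 to 2 genes higher relative to the markers, and 1.83% to 84.8% of all genes. Small differences relative to the markers changed sign and were not called. That of Plvap went to -0.036 with a pseudocount of 1. Over the fits without a single pool, that of Sele ranged from -1.01 to 0.60 and that of Icam2 from -0.57 to 0.089.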

Other observations

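Lymphatic endothelium shares Pecam1 and Cdh5 with blood vessels, and 4 of its markers were examined. Prox1, the transcription factor that specifies lymphatic identity, stayed under 0.5 RPM in every pool. Flt4, the receptor VEGFR-3, went from 3.35 and 2.35 RPM in the LLC pools to 0.95 and 0.20 RPM in the LLC-Chem pools and was called lower (log2 fold change -1.72, limma adjusted p = 0.0382), as was Pdpn (podoplanin, also on fibroblasts and tumor cells), which had a log2 fold change of -0.64. Lyve1, a hyaluronan receptor of lymphatic endothelium and of some macrophages, went the other way, from 22.4 and 18.1 to 176.7 and 120.4 RPM (log2 fold change 2.83, limma adjusted p = 0.00665). With Vcam1 and Il1r1 it is among the genes of the lists that rose while Cdh5 fell.

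Among the genes outside the lists whose profiles over the 4 pools were nearest to that of Cdh5, by distance between centred log2(RPM + 0.5) values, were Cd300lf, Sh2d5, Gimap4 and Ctla2a, at distances of 0.206 to 0.244 log2 units. Those nearest to Vcam1 were Kcnq1ot1, Gm37893, 4930516B21Rik, Gm17275 and Clca1, at distances of 0.0403 to 0.13. With 4 pools such likeness is a description. Clca1 was at 0.55 and 0.40 RPM in the LLC pools and at 1.25 and 2.45 RPM in the LLC-Chem pools, while Kcnq1ot1 was at 3.15 and 2.90 RPM against 5.70 and 9.10 RPM.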
